A study of Mus musculus with 8 samples.

Results

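The nuclear genes for the subunits of mitochondrial oxidative phosphorylation were followed in Deaf1 knockout mice, in the lymph node to which the pancreas drains. Members were all rows whose gene name in the files begins with Nduf, Sdh (Sdha to Sdhd), Uqcr, Cox4 to Cox8 or Atp5, each represented by its brightest probe. The rule found 83 names, of which 78 are subunits: 35 of complex I, 4 of complex II, 7 of complex III, 17 of complex IV and 15 of complex V. Ndufa4, first named as a complex I subunit, was placed in complex IV, where it is now assigned. The other 5 names share a prefix but are no subunits of these complexes. They are Ndufaf1 and Ndufa12l (now Ndufaf2), assembly factors of complex I, Cox7a2l, a supercomplex factor, Cox4nb (now Emc8), a membrane protein insertase subunit, and Atp5s (now Dmac2l), a factor that couples the synthase. In all, 82 members were tested among 18411 genes. Cox8c, the testis form of Cox8, did not pass the filter and lay well above background on 0 arrays.

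Each of the 8 arrays set RNA of a BALB/c mouse with Deaf1 knocked out (Cy5) against pooled RNA (Cy3) of BALB/c wild-type littermates, matched in age. Deaf1 is a transcription factor. Mice were 4 weeks old (2 arrays, a pool of 2 mice), 12 weeks old (3 arrays, a pool of 3) or 30 weeks old (3 arrays, a pool of 3). The dyes were not swapped, and the pool was hybridised only beside knockout RNA, so the spread of the controls is in no test below. Each value is the log2 of the knockout signal over that of the pool. A gene is called where the adjusted p is under 0.05, from limma with Benjamini-Hochberg adjustment over all genes tested, and errors after ± are standard errors of that fit unless SD is written.

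Several arrays stood apart in genes that are no members. Replicate 2 of 12 weeks gave 5.32 for Xist, −3.89 for Ddx3y and −4.86 for Eif2s3y, whereas the other 2 arrays of that age gave −0.40 and 0.33 for Xist. The median of 11 pancreatic acinar markers was −4.09, 4.03 and −4.50 on the 3 arrays of 30 weeks and between −1.87 and 0.62 on the other 5. The median of 12 white fat markers lay between −1.52 and 0.50, and all 12 lymph node markers were well above background in the knockout channel on every array. The part of these other cells in the members' values was not tested. The targeted gene gave −0.22 and −0.12 at 4 weeks, 0.34, 0.35 and 0.32 at 12 weeks and 0.14, 0.00 and 0.15 at 30 weeks at its brightest probe. A second Deaf1 probe gave −0.74, 3.11 and −0.62 at 30 weeks. Which part of the gene the knockout removes is not given in the sources used here, so neither probe checks the labels.

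Oxidative phosphorylation passes electrons from NADH (complex I) and from succinate (complex II, which is also an enzyme of the citric acid cycle) through complex III and cytochrome c to oxygen at complex IV, and complex V uses the resulting proton gradient to make ATP. Complexes I, III, IV and V hold subunits from both nuclear and mitochondrial DNA, while complex II is nuclear only. Lymphocytes, the bulk of a lymph node, use this pathway at rest and raise both it and glycolysis when activated. Some complex IV subunits exist in a common form and in a form of heart, muscle or brown fat. NRF1 and the ETS factor GABP are known regulators of many nuclear respiratory genes.

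Promoters were read from RefSeq (GRCm38.p6), which gave 73 windows of 250 bases before to 50 after the start for 68 of the 83 members. Each of 4 motifs was searched on both strands. The NRF1 motif, GCGCA and GCGC with any 1 base between them, was in 24.7% of the member windows and in 4.60% of all 32851 windows, the ETS motif CCGGAAG in 23.3% and 8.86%, the YY1 motif AAGATGGCG in 9.59% and 1.40%, and TTCG, the core bound by Deaf1, in 76.7% and 44.7%. Member windows were also richer in G and C, with a median of 57.7% against 52.7% for all windows. The 170 bases before the start are shown for 2 members called lower in knockout nodes at 30 weeks (Sdha and Atp5g2) and 2 called higher (Cox6a1 and Atp5k), because all 4 hold the NRF1 motif there, which is in capitals. All 4 lie on the minus strand, at chr13:74350241-74350410, chr15:102671048-102671217, chr5:115348959-115349128 and chr5:108434400-108434569.
Sdha: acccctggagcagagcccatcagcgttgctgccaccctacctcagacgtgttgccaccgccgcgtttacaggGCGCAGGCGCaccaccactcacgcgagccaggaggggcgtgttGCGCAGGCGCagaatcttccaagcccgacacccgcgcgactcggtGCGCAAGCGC
Atp5g2: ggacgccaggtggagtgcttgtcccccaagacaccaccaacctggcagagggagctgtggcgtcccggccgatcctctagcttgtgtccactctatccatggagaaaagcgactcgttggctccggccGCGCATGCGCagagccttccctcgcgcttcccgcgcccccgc
Cox6a1: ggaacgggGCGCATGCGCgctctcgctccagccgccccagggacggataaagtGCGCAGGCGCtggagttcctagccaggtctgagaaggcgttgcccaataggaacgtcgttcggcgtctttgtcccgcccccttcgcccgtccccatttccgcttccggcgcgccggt
Atp5k: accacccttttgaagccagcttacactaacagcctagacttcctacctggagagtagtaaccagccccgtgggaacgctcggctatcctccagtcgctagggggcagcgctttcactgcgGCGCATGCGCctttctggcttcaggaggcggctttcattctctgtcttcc
The stretch of Sdha holds the motif at 3 places, that of Cox6a1 at 2, and those of Atp5g2 and Atp5k at 1 each. Among members with a window, 7 of the 26 called higher at 30 weeks, 5 of the 15 called lower and 5 of the 27 not called held the NRF1 motif. The TTCG core was in 21 of 26, 9 of 15 and 21 of 27. A match is a description of the letters and not of binding.

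In the reported fit more members were called at 30 weeks than at 4 or 12 weeks, and in both directions. In knockout nodes 29 of 82 were called higher and 17 lower than in wild type, that is 56.1% of members, where 39.1% of all genes tested were called (20.7% higher and 18.4% lower). Their median ratio of 0.06 was close to the 0.03 of all genes. With the arrays only centred on their medians and not corrected for intensity, the split was 48 higher and 3 lower, where 28.0% of all genes were called (24.6% higher and 3.33% lower), with medians of 0.49 for members and 0.15 for all genes, and fewer members were called at 30 weeks than at 4 or 12 weeks (75 each). Of complex II all 4 members were called lower (2 of 4 with median centring alone), whereas 9 of 16 complex IV members tested were called higher and 1 lower (10 and 0 with median centring alone). Complex I had 10 higher and 6 lower of 35, complex III 2 and 1 of 7, and complex V 6 and 3 of 15, splits that were 20 and 1, 6 and 0, and 10 and 0 with median centring alone.

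**Figure D1:**
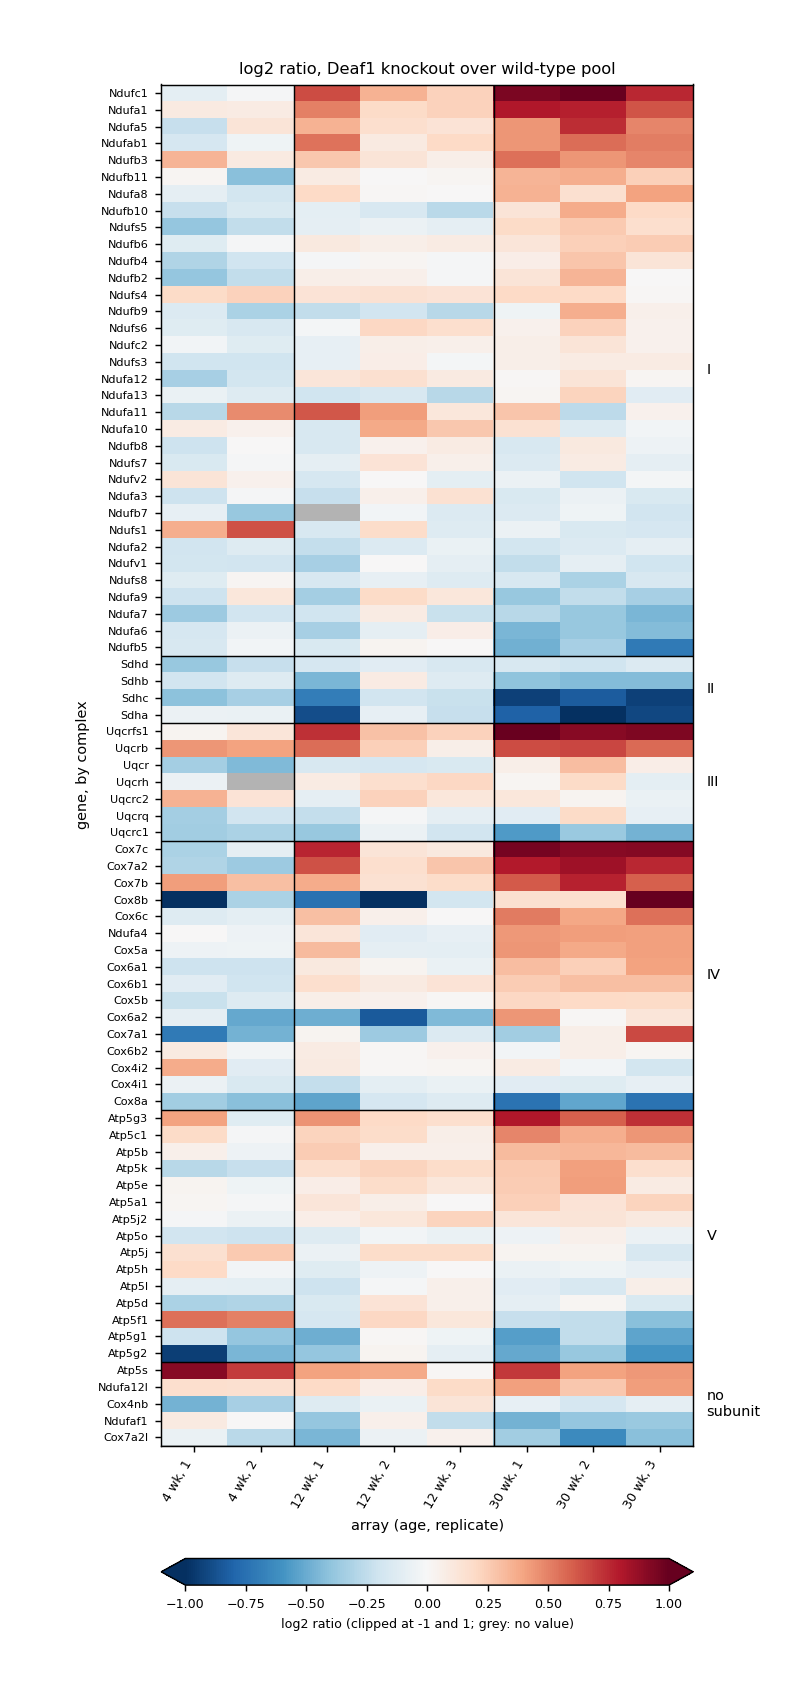
Log2 ratio of knockout over wild-type pool of 81 members (rows, grouped by complex and sorted by the 30-week mean) on the 8 arrays (columns, by age and replicate), red for higher and blue for lower in knockout. Most of the deep colours are on replicate 1 of 12 weeks and at 30 weeks, and Ndufb7 and Uqcrh each lack 1 value.

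**Figure D2:**
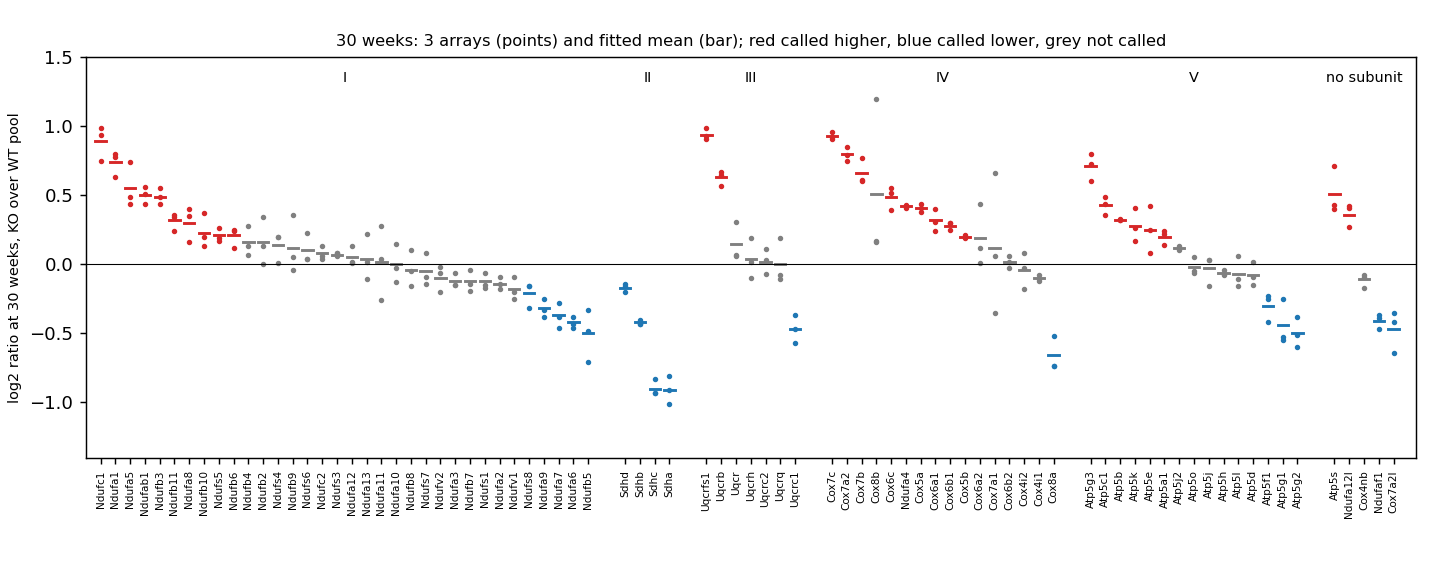
Log2 ratio of knockout over wild-type pool at 30 weeks (y axis) for 81 members (x axis, grouped by complex), with points for the 3 arrays and a bar for the fitted mean. Red marks the 29 members called higher, blue 16 of those called lower and grey those not called, and the 4 complex II members are all blue.

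Complex II links the citric acid cycle to the respiratory chain, and its 4 members were called lower at 30 weeks in the reported fit. Sdha, the flavoprotein that oxidises succinate, gave −0.81, −1.01 and −0.91 on the 3 arrays (−0.91 ± 0.13, adjusted p = 0.0019). Sdhc, a membrane anchor that helps bind ubiquinone, gave −0.93, −0.83 and −0.93 (−0.90 ± 0.10, adjusted p = 0.000913). At these probes all 3 arrays were low for both genes. Sdhb, the iron-sulphur subunit, gave −0.40, −0.43 and −0.43 (−0.42 ± 0.09, adjusted p = 0.00851). Sdhd, the other anchor, gave −0.16, −0.20 and −0.14 (−0.17 ± 0.06, adjusted p = 0.0476). Sdha and Sdhc lay below Sdhb and Sdhd on all 3 arrays. Without replicate 3 of 30 weeks the call of Sdhb was lost. With median centring alone 2 of the 4, Sdha and Sdhc, were called lower. Sdhb was then −0.07, and neither Sdhb nor Sdhd was called. A second Sdha probe gave −0.17, −0.34 and −0.36 at 30 weeks. A probe under the name 1500032O14Rik, which RefSeq now lists as a synonym of Sdha and which was not counted as a member, gave 0.48, 0.33 and 0.40.

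The complex II median was the lowest of the 5 complexes on each of the 8 arrays. It was −0.28 and −0.18 at 4 weeks, −0.57, −0.10 and −0.19 at 12 weeks, and −0.60, −0.63 and −0.67 at 30 weeks. Over the 22 settings tried, complex II had the lowest fitted median at 30 weeks in 22, at 12 weeks in 22 and at 4 weeks in 20, although with median centring alone its own value was above 0 at 4 and 12 weeks (0.65 and 0.36), where the median of all genes moved to 0.49 and 0.41. Leaving out an array of another age, or adding an intensity trend, cannot move the median of an age, so these counts are not independent. The complex II medians rest on 4 genes, and no test was made across complexes.

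**Figure D3:**
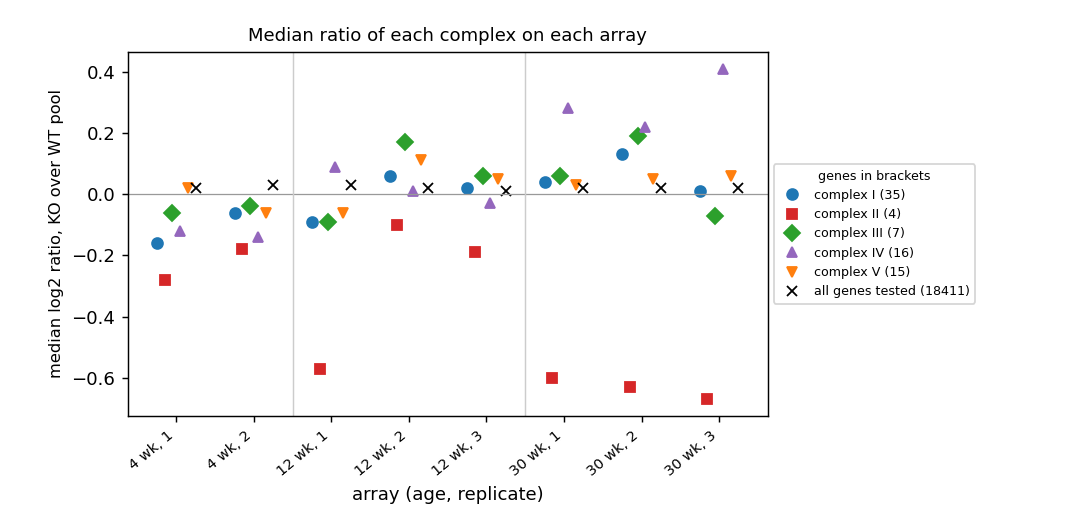
Median log2 ratio of knockout over wild-type pool (y axis) of the members of each complex and of all genes tested on each array (x axis, age and replicate), with the number of genes in brackets. The complex II squares are the lowest of the 5 complexes on all 8 arrays, at −0.57 to −0.67 on replicate 1 of 12 weeks and the 3 arrays of 30 weeks; with median centring alone they were above 0 at 4 and 12 weeks.

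Complex I, which takes electrons from NADH, had members on both sides of 0 at 30 weeks. Ndufc1, an accessory membrane subunit, gave 0.94, 0.99 and 0.75 at 30 weeks (0.89 ± 0.09, adjusted p = 0.000795). Ndufa1, a small membrane subunit encoded on the X chromosome, gave 0.80, 0.78 and 0.63. Other accessory subunits called higher were Ndufa5 (0.55), Ndufab1, the mitochondrial acyl carrier protein (0.50), and Ndufb3 (0.49). Accessory subunits called lower were Ndufb5 (−0.50), Ndufa6 (−0.42), Ndufa7 (−0.37) and Ndufa9 (−0.32). Ndufs8, a core subunit with iron-sulphur clusters, was −0.21 and called lower. With median centring alone these 5 lay between −0.27 and 0.13, and none was called. Ndufs1, the largest core subunit with iron-sulphur clusters, was −0.12 ± 0.09 and not called, and neither was Ndufv1, the NADH-binding subunit, at −0.18 ± 0.07. The core subunits Ndufs3, Ndufs7 and Ndufv2 were not called (0.07, −0.05 and −0.10).

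In complex III, which passes electrons from ubiquinol to cytochrome c, the Rieske iron-sulphur protein Uqcrfs1 gave 0.99, 0.91 and 0.93 at 30 weeks. This rise of 0.94 ± 0.09 (adjusted p = 0.000835) was the largest of all members at that age. Uqcrb, which contacts the ubiquinone site, also rose (0.65, 0.67 and 0.57). Uqcrc1, a core subunit, gave −0.57, −0.37 and −0.47 (−0.47 ± 0.07, adjusted p = 0.00243), and −0.02 with median centring alone. Uqcrfs1 and Uqcrc1, parts of the same complex, thus lay on opposite sides of 0 on all 3 arrays. Uqcrc2, the second core subunit, and Uqcrh and Uqcrq were not called (0.02, 0.04 and 0.00).

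Complex IV, cytochrome c oxidase, had the highest median at 30 weeks, 0.28, 0.22 and 0.41 on the 3 arrays, and the highest fitted median of the 5 complexes in 22 of 22 settings. Settings that leave out an array of another age or add an intensity trend cannot move that median. Cox7c gave 0.96, 0.91 and 0.92 (0.93 ± 0.12, adjusted p = 0.00136). Cox7a2, the common form of the 7a subunit, gave 0.79, 0.85 and 0.75 (0.80 ± 0.09, adjusted p = 0.000988). Both were high on all 3 arrays. Cox7b (0.66), Cox6c (0.49), Ndufa4 (0.42 ± 0.06), Cox5a (0.41 ± 0.09), Cox6a1, the common 6a form (0.32 ± 0.06), Cox6b1 (0.28) and Cox5b (0.20) were called higher as well. Cox8a, the common 8 form, went the other way with −0.74, −0.52 and −0.74 (−0.66 ± 0.09, adjusted p = 0.00139), and was −0.10 and not called with median centring alone. Cox4i1, the common form of the largest nuclear subunit, was −0.10 ± 0.06 and not called. Cox4i2, its lung form, had a wild-type signal that was on no array well above background, so no fold is given.

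Complex V, the ATP synthase, was split within its own parts. Of the 3 genes for the c subunit of the membrane ring, which encode the same mature protein, Atp5g3 rose (0.80, 0.60 and 0.73, fitted mean 0.71), while Atp5g2 fell (−0.51, −0.38 and −0.60, fitted mean −0.50 ± 0.11, adjusted p = 0.00851) and Atp5g1 fell (−0.55, −0.25 and −0.53, fitted mean −0.44). The ratios of Atp5g3 were above those of Atp5g1 and Atp5g2 on all 3 arrays. Atp5c1, the gamma subunit of the central stalk, was 0.43 and called higher, and so was Atp5k, the e subunit, at 0.28. Atp5f1, the b subunit of the outer stalk, was −0.30 and called lower. With median centring alone Atp5g1, Atp5g2 and Atp5f1 were −0.04, −0.02 and 0.17, and none was called. The catalytic beta subunit Atp5b was 0.32 ± 0.06 (adjusted p = 0.00528) and the alpha subunit Atp5a1 was 0.20 ± 0.06 (adjusted p = 0.0231) at their brightest probes, and neither direction was shared by their other probes. Of the 5 names that are no subunits, Atp5s (0.51) and Ndufa12l (0.36) were called higher at 30 weeks, and Cox7a2l (−0.47 ± 0.10, adjusted p = 0.00847) and Ndufaf1 (−0.41) lower, of which the last 2 were −0.05 and −0.16 and not called with median centring alone. A second Atp5s probe averaged 0.00 at 30 weeks.

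Probes of the same gene disagreed for several members. Of the 24 members with more than 1 probe kept, all probes had the same sign at 30 weeks in 16, and in 10 of the 13 that were called, all but Atp5b, Atp5a1 and Atp5f1. At 4 weeks the probes had the same sign in 14, and in 4 of the 7 called, all but Atp5f1, Cox4nb and Ndufb2. The brightest Atp5b probe, on chromosome 10 at 127493148 to 127493207 (mm8, plus strand), gave 0.32, 0.33 and 0.32 at 30 weeks. The probes nearer the 5′ end gave −0.77, −0.84 and −0.86 (starting at 127488462) and −0.93, −0.98 and −0.99 (starting at 127487371). A second Atp5a1 probe gave −0.39, −0.47 and −0.45. Averaged over their probes, Atp5b was −0.49 and called lower and Atp5a1 was −0.12 and not called, so neither subunit has a settled direction. Another Atp5f1 probe averaged −0.06 at 4 weeks and 0.12 at 30 weeks. The probes of Uqcrc1, Ndufc1 and Cox7a2 had equal signs at 30 weeks, and the second Ndufc1 probe was smaller at 0.36 (SD 0.04, n = 3). The kept probes of Cox7a2, those of Ndufa8 and those of Ndufa11 overlap in position, so their equal signs at 30 weeks are no independent check. Atp5s is counted as of equal sign at 30 weeks although its second probe averaged 0.00. Over 5466 genes with probes 300 to 200000 bases apart, a span chosen after the data were seen, the 3′ probe exceeded the 5′ probe by a median of 0.10 on each array of 30 weeks. For the 18 members among them the medians were −0.01, 0.05 and 0.03. On the 2 arrays of 4 weeks the median was 0.12 and 0.09 over all those genes and 0.19 and 0.16 over the 18 members. For Atp5b the differences at 30 weeks were 1.24, 1.31 and 1.31. The part of probe position in these results was not tested.

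**Figure D4:**
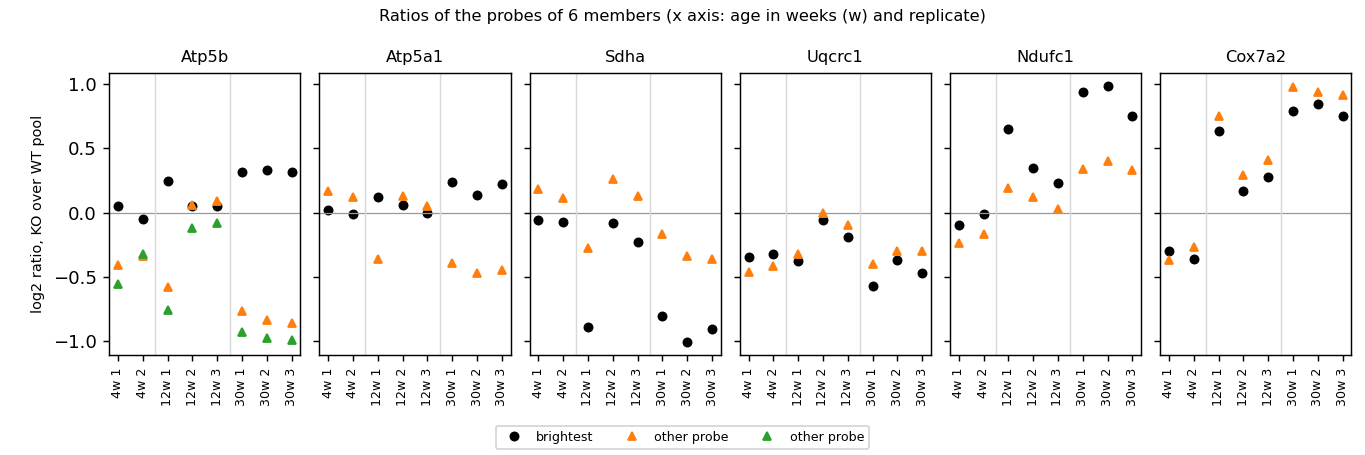
Log2 ratio of knockout over wild-type pool (y axis) of each kept probe of 6 members on the 8 arrays (x axis, age in weeks and replicate), with the brightest probe as black circles and other probes as triangles. For Atp5b and Atp5a1 the brightest probe is above 0 and the others below 0 on the 3 arrays of 30 weeks. For Cox7a2 the probes lie close together, but they overlap in position.

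Probe composition moved with the calls. The 29 members called higher at 30 weeks had a median of 36.7% G and C in their probes, the 17 called lower 45.0% and the 36 not called 46.6%. Over all genes, ratio and probe composition had Pearson's r of −0.32, −0.13 and −0.28 on the 3 arrays of 30 weeks, and over the members −0.43, −0.30 and −0.39, where the points share an array. After a correction for it the members called at 30 weeks were 28 higher and 15 lower, with 38 of the 46 calls kept in the same direction, and Atp5b was no longer called. The share of all genes called after this correction is not given here.

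At 4 weeks fewer members were called and the share was near that of all genes. In knockout nodes 5 of 82 were called higher and 12 lower than in wild type, 20.7% of members, where 22.7% of all genes were called (15.3% higher and 7.38% lower). The median member ratio was −0.11 against 0.02 for all genes, but turned to 0.78 against 0.49 with median centring alone, where 75 members were called higher and 0 lower and 53.0% of all genes were called (50.8% higher and 2.11% lower). Counts rested on both arrays: 0 members were called without replicate 1, and 2 higher and 5 lower without replicate 2. Of all genes 2.71% were called without replicate 1 (2.46% higher and 0.255% lower) and 15.9% without replicate 2 (11.2% higher and 4.68% lower). On replicate 2 the pool was well above background at 37.2% of probes, against 51.6% on replicate 1.

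The rises at 4 weeks were led by Atp5s, with 0.91 and 0.70 on the 2 arrays (0.81 ± 0.12, adjusted p = 0.00309). A second Atp5s probe gave 0.42 and −0.07, and the mean of the probes was 0.49 (adjusted p = 0.0175). Atp5f1 gave 0.55 and 0.50 (0.53 ± 0.10, adjusted p = 0.0081), Ndufs1 0.36 and 0.64 (0.50 ± 0.11, adjusted p = 0.0125) and Uqcrb 0.44 and 0.40 (0.42 ± 0.11, adjusted p = 0.028). Cox7b was also called higher, at 0.36. As the mean of its probes Atp5f1 was 0.28 and no longer called (adjusted p = 0.0829). These 5 genes belong to 4 different complexes or to none. Among the falls, Atp5g2 gave −0.94 and −0.46 (−0.70 ± 0.13, adjusted p = 0.00845), and 0.22 with median centring alone. Uqcr (now Uqcr11), a small complex III subunit, gave −0.34 and −0.44 (−0.39 ± 0.08, adjusted p = 0.0118), and Cox8a −0.35 and −0.42 (−0.39 ± 0.11, adjusted p = 0.0355); both turned to 0.53 with median centring alone. Uqcrc1 was −0.34 ± 0.09 (adjusted p = 0.0318) and Cox4nb −0.40 ± 0.09 (adjusted p = 0.0126), which turned to 0.58 and 0.40 under that setting. A second Cox4nb probe averaged 0.11, and as the mean of the probes the gene was −0.15 and not called (adjusted p = 0.294). Sdhd was the one complex II member called (−0.30). Of the core genes, Ndufv1, Sdha, Sdhb, Uqcrfs1, Cox4i1, Cox5a, Atp5a1 and Atp5b lay between −0.18 and 0.07 and were not called, but between 0.70 and 0.99 and called higher with median centring alone. The other 2 Atp5b probes averaged −0.44 and −0.38.

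At 12 weeks 1 of 82 members was called, 1.2% against 2.61% of all genes (1.23% higher and 1.37% lower). With limma, 30 of 82 had an unadjusted p under 0.05, against 25.7% of all genes. The member called was Cox6a2, the heart and muscle form of the 6a subunit, which gave −0.49, −0.84 and −0.44 (−0.59 ± 0.12, adjusted p = 0.046). It was low on all 3 arrays, but the call was lost when any 1 of the 8 arrays was left out. Uqcrfs1 (0.73, 0.29 and 0.23, fitted mean 0.42 ± 0.09, adjusted p = 0.0556) and Cox7a2 (0.64, 0.17 and 0.28, fitted mean 0.36 ± 0.09, adjusted p = 0.0641) were higher on all 3 arrays without passing. Median centring alone called 75 members higher and 0 lower, where 56.0% of all genes were called (52.7% higher and 3.3% lower).

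Replicate 1 of 12 weeks resembled the 30-week arrays more than the other arrays of its age did, over the members and over all genes. For the same-sign counts that follow, the share over all genes is not given. Of the 46 members called at 30 weeks, 44 had the same sign on it, against 32 on replicate 2 and 34 on replicate 3, and the median size in that direction was 0.33, 0.07 and 0.08, beside 0.42 for the 30-week mean. Sdha, for instance, gave −0.89 on replicate 1 and −0.08 and −0.23 on the others, and Cox7c gave 0.76, against 0.13 and 0.10. Across the 82 members, Pearson's r with the 3 arrays of 30 weeks was 0.75 to 0.87 for replicate 1, 0.00 to 0.27 for replicate 2 and 0.37 to 0.48 for replicate 3, and over all genes 0.51 to 0.61, 0.06 to 0.22 and 0.28 to 0.31. These arrays used different pools, and the points share probes, their composition and intensity. On the 4-week arrays 28 and 22 of the 46 had the same sign. The 3′ over 5′ difference over all genes was 0.14 on replicate 1 and 0.03 and 0.02 on the others, and its part was not tested. Without replicate 2, 5 members were called higher and 3 lower at 12 weeks, where 10.1% of all genes were called (5.39% higher and 4.67% lower).

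The knockout effect differed between ages for few members. For 12 minus 4 weeks 3 of 82 members were called higher and 0 lower, 3.70% against 6.98% of all genes (1.37% higher and 5.61% lower). Cox7a2 gave 0.64, 0.17 and 0.28 at 12 weeks and −0.30 and −0.36 at 4 weeks (difference 0.69 ± 0.14, adjusted p = 0.0273). Atp5k gave 0.17, 0.22 and 0.18 at 12 weeks and −0.28 and −0.23 at 4 weeks (difference 0.44 ± 0.10, adjusted p = 0.0374). Ndufa12, an accessory complex I subunit, gave 0.12, 0.16 and 0.09 at 12 weeks and −0.33 and −0.18 at 4 weeks (difference 0.38 ± 0.09, adjusted p = 0.0494). Its other probes averaged −0.08 and −0.07 at 12 weeks, and its call was also lost with the mean of probes and with the authors' ratios. At the brightest probes of all 3 genes, the arrays of the ages did not overlap. All 3 calls were lost without either 4-week array, without replicate 3 of 12 weeks and without replicate 1 or 3 of 30 weeks, and with median centring alone. Without replicate 2 of 12 weeks 1 member was called higher and 2 lower. The share of all genes called there is not given, so this count is no result about the members.

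For 30 minus 12 weeks limma called 0 members, against 0.777% of all genes (0.32% higher and 0.456% lower). At an unadjusted p under 0.05 there were 34 of 82 members, against 21.2% of all genes, and the lowest adjusted p was 0.0667, for Ndufa4. Without replicate 1 of 12 weeks, 15 members were called higher and 10 lower, where 15.0% of all genes were called (7.1% higher and 7.92% lower). On the slide that held the 3 arrays of 12 weeks and 1 of 30 weeks, the difference of Uqcrfs1 was 0.57, and it was 0.52 ± 0.13 in the full fit, which holds the same 4 arrays. Ages differ in pool as well, and the 4-week arrays also in slide, scanner and version of the scanner file software. Age cannot be told apart from these. All arrays of the 2 ages lay on opposite sides of 0 in 11 of 82 members between 12 and 4 weeks, against 8.7% of all genes (4.49% above 0 at the later age and 4.21% below), and in 5 between 30 and 12 weeks, against 3.12% (1.37% above and 1.74% below). Between 30 and 4 weeks this held for 28, of which 25 were above 0 at 30 weeks, against 19.7% of all genes (9.1% above and 10.6% below). With median centring alone 0 of the 11, 0 of the 5 and 1 of the 28 (Cox8b) kept it in the same direction.

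The heart, muscle and brown fat forms followed another pattern, and varied more between arrays. Cox8b, the heart and muscle form of the 8 subunit, also high in brown fat, gave −1.76 and −0.32 at 4 weeks, −0.75, −1.12 and −0.18 at 12 weeks and 0.16, 0.17 and 1.20 at 30 weeks, and was not called at any age. Its knockout signal was well above background on 1 of 2 arrays at 4 weeks. Cox7a1, the heart and muscle form of the 7a subunit, gave −0.71 and −0.47 at 4 weeks, 0.03, −0.36 and −0.14 at 12 weeks and −0.35, 0.06 and 0.66 at 30 weeks, and was likewise not called. Both were lowest on a 4-week array and highest on replicate 3 of 30 weeks. Cidea, a brown fat marker, gave −1.30 and −0.34 at 4 weeks, −1.14, −1.51 and −0.40 at 12 weeks and −0.86, −0.03 and 1.11 at 30 weeks. Ucp1, the defining brown fat gene, gave −1.46, −0.11 and 1.17 at 30 weeks. Dio2, the thyroid hormone deiodinase of brown fat, gave −0.27, −0.19 and −0.27 there and was called lower (−0.24 ± 0.06, adjusted p = 0.0102), but not with median centring alone (adjusted p = 0.0846). Of 7 brown fat markers listed, these 3 were tested. The 12 white fat markers had medians of −1.52 and −0.64 at 4 weeks, −1.47, −1.49 and −0.01 at 12 weeks and −0.03, −0.37 and 0.50 at 30 weeks, with 3 called lower at 4 weeks (1 higher and 0 lower with median centring alone). Of 10 skeletal muscle markers 6 were tested, with medians of −0.05 and −0.08 at 4 weeks, −0.24, −0.11 and −0.18 at 12 weeks and −0.27, −0.11 and −0.14 at 30 weeks. Ckm, Myh4, Actn3 and Pvalb did not pass the filter, and 2 of those tested, Myh2 (−0.69, −0.67 and −0.64) and Acta1 (−0.50, −0.54 and −0.44), were called lower at 12 weeks beside Cox6a2. The other 4 were not called there, among them Tnnc2 (0.02, 0.24 and 0.01) and Atp2a1 (0.04, 0.04 and −0.07). At 30 weeks 0 muscle markers were called higher and 3 lower (0 and 1 with median centring alone), where Cox6a2 gave 0.44, 0.01 and 0.12. Of all genes tested, 7.38% were called lower at 4 weeks, 1.37% at 12 weeks and 18.4% at 30 weeks. The part of fat or muscle in these 3 forms was not tested, and in whole nodes fewer cells of a type and less RNA per cell cannot be told apart. The Cox8b probe lies on chromosome 7 at 140750273 to 140750332 (mm8), 401 kb from the nearest Deaf1 probe, and Cox6a2 lies 13200 kb away.

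**Figure D5:**
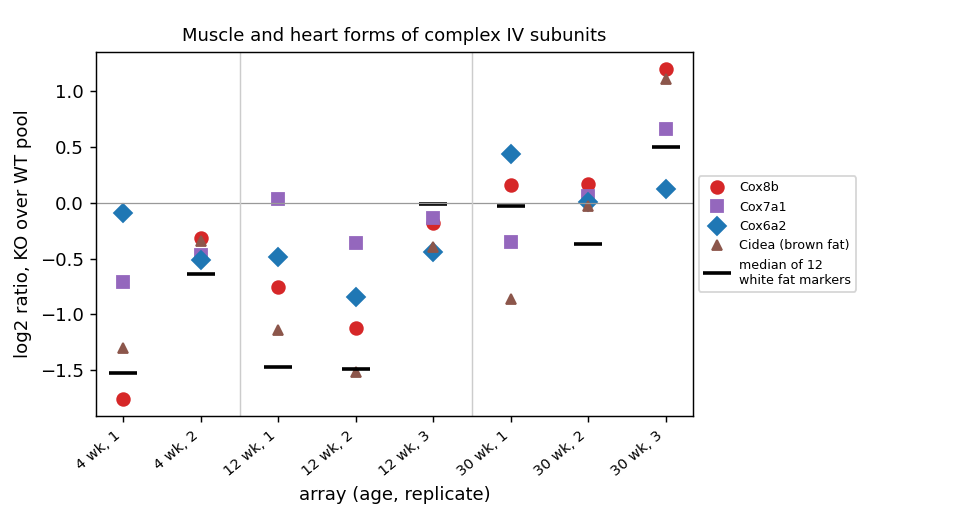
Log2 ratio of knockout over wild-type pool (y axis) of Cox8b, Cox7a1 and Cox6a2, of the brown fat marker Cidea and of the median of 12 white fat markers (black bars) on the 8 arrays (x axis, age and replicate). Cox8b is lowest, at −1.76, on replicate 1 of 4 weeks and highest, at 1.20, on replicate 3 of 30 weeks, where Cidea is also highest.

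Other mitochondrial genes were counted from lists chosen beside the members, and these counts move with the scaling as those of the members do. Of all genes tested, 39.1% were called at 30 weeks (20.7% higher and 18.4% lower), 22.7% at 4 weeks (15.3% and 7.38%) and 2.61% at 12 weeks. With median centring alone the shares were 28.0% at 30 weeks (24.6% and 3.33%), 53.0% at 4 weeks (50.8% and 2.11%) and 56.0% at 12 weeks. List counts near these shares are no result about a pathway. Of 36 assembly factors tested, 13 were called higher and 5 lower at 30 weeks (median 0.13), against 17 and 1 with median centring alone. Cox17, a copper chaperone of complex IV, gave 0.66, 1.50 and 0.97 (1.04 ± 0.18, adjusted p = 0.00306), and Timmdc1, an assembly factor of complex I, 0.71, 0.64 and 0.76. Surf1, needed to build complex IV, fell (−0.89, −0.64 and −0.98), and Sdhaf2, which adds the flavin to Sdha, gave −0.50, −0.58 and −0.67 (−0.59 ± 0.07, adjusted p = 0.00108). Sdhaf2 was below 0 on all 3 arrays, as was Sdha, but at 4 weeks it was 0.45 and 0.49 and called higher. With median centring alone Sdhaf2 was −0.29 at 30 weeks and not called. At 4 weeks 5 assembly factors were called higher and 7 lower, and at 12 weeks 1 higher (Nubpl, 0.49) and 0 lower, but 29 and 0 at 4 weeks and 28 and 0 at 12 weeks with median centring alone. Of 11 electron carriers and further subunits, 6 were called higher and 2 lower at 30 weeks (8 and 0 with median centring alone). Etfdh, which feeds electrons from fatty acid oxidation to ubiquinone, was 0.71 ± 0.08 at 30 weeks and 0.94 ± 0.10 at 4 weeks, and Etfa, a subunit of the electron carrier upstream of it, was −0.29 ± 0.07 at 30 weeks (0.02 with median centring alone) and 0.77 ± 0.08 at 4 weeks. Etfb, the other subunit of that carrier, was called lower at both ages (−0.26 ± 0.08 at 30 weeks and −0.49 ± 0.09 at 4 weeks). With median centring alone Etfb was 0.22 and 0.43 and not called.

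Among 18 genes of the citric acid cycle and pyruvate dehydrogenase, 3 were called higher and 8 lower at 30 weeks (median −0.10), but 6 and 2 with median centring alone (median 0.22). At 4 weeks 3 were called higher and 1 lower (16 and 0 with median centring alone). Of all genes 39.1% were called at 30 weeks and 22.7% at 4 weeks (28.0% and 53.0% with median centring alone). Suclg1, a subunit of succinyl-CoA synthetase, which makes the substrate of complex II, gave −0.87, −0.69 and −0.93 at 30 weeks, and Idh2 −0.79, −0.51 and −0.89. Mdh2 (0.43) and Dld (0.39) were the largest rises. Of 19 genes of mitochondrial transcription and its regulators, 8 were called higher and 5 lower at 30 weeks (median 0.23), against 9 and 1 with median centring alone. Tfam, which packages and transcribes mitochondrial DNA, gave 0.46, 1.05 and 0.61, and Gabpa, the DNA-binding part of GABP, 0.65, 0.54 and 0.66. Polg, the mitochondrial DNA polymerase, was −0.52 ± 0.07, and −0.25 and not called with median centring alone. Ppargc1a, the coactivator PGC-1alpha, was called higher at 12 weeks (0.48, 0.38 and 0.31).

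Of 78 mitochondrial ribosomal protein genes, 29 were called higher and 18 lower at 30 weeks and 8 higher and 19 lower at 4 weeks, counts that were 38 and 2, and 61 and 0, with median centring alone. Mrpl50 gave 0.82, 0.89 and 0.83 at 30 weeks, and Mrpl2 −0.82, −0.77 and −0.79. Of 25 import genes, which count Timmdc1 again, 5 were called higher and 7 lower at 30 weeks (6 and 1 with median centring alone). Of 18 glycolysis genes, 2 were called higher and 10 lower at 30 weeks (median −0.27), but 3 and 2 with median centring alone (median 0.11). At 4 weeks 0 were called higher and 4 lower, but 9 and 0 with median centring alone. Beside the counts of these 3 lists, 39.1% of all genes were called at 30 weeks and 22.7% at 4 weeks (28.0% and 53.0% with median centring alone). Hk3 (−0.78 ± 0.12) and Eno1 (−0.74 ± 0.12) fell most at 30 weeks, and Hk2 (0.72 ± 0.14) and Ldha (0.58 ± 0.11) rose. The 13 subunits encoded by mitochondrial DNA were not analysed here.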

How the data were processed

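The members, roles and gene lists were chosen with earlier results of these data known. Total RNA was amplified and labelled with an Agilent low-input kit, per the labels' protocols. The deposited scanner files give mean spot and local background brightness (intensity), per the file headers, written by Agilent Feature Extraction 9.5.3.1 (4 weeks) and 10.2.1.3 (other ages), and the authors' log10 ratio of processed signals, per the file headers. The deposited series matrix holds the authors' log2 ratio of red over green processed signal, as found by comparison (Pearson's r of at least 0.999976 per array); its medians per array run from −0.211 to 0.152, so it is not centred, its direction is knockout over wild type, and its software is not given in the sources used here.

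With limma 3.58.1 in R 4.3.3, normexp (offset 50) corrected the signals and loess, in which control spots had weight 0, normalised each array. Spots of a probe were averaged, leaving out outliers. A probe was kept if, for 1 age or more, every array had it well above background in one and the same channel (27464 probes), and the brightest represents a gene. Missing values (27 in all) include Ndufb7 on replicate 1 of 12 weeks and Uqcrh on replicate 2 of 4 weeks, whose means rest on the remaining arrays. A mean per age was fitted to the 8 arrays, with 5 residual degrees of freedom and 3.40 prior ones. Means, and the differences 12 minus 4 and 30 minus 12 weeks, were compared with 0 in two-sided tests. The fit was tested on simulated data. Slide 1 held the 4-week arrays, slide 2 those of 12 weeks and replicate 1 of 30 weeks, slide 3 the rest; one pool per age is an assumption. Names came through RefSeq for 24375 probes by accession, 6301 by symbol and 2426 by synonym; 8072 kept the file's name, and members kept their file names. Probe coordinates are mm8, per the 4-week file headers. The number of arrays limits the precision.

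Named in each contrast are the 4 called members that rose most and the 4 that fell most among those of equal sign on every array (for differences, no overlap), 19 fixed core and isoform members, up to 2 called genes per direction of each list, and Deaf1. Not all list genes picked in this way are reported above, and those left out include large changes at 4 weeks in both directions. One member is counted but not reported singly here. Members named beyond this were chosen after their values were seen. Alternatives were the authors' ratios, median centring without loess, scaling between arrays, no background correction, no filter or a strict one, the mean of probes, a probe composition correction, replicate or slide as a block, an intensity trend, and each array left out.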

Additional observations from a re-analysis of the deposited data

Results flagged for a closer look

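Some members had all arrays of one age on one side of 0 and all arrays of another age on the other side. Between 12 and 4 weeks there were 11 of 82, where 8.7% of all genes did so (4.49% above 0 at the later age and 4.21% below). Limma called the differences of Cox7a2 (0.69), Atp5k (0.44) and Ndufa12 (0.38). It did not call those of Cox7c (0.54), Ndufc1 (0.46), Ndufab1 (0.38), Cox6b1 (0.29), Cox5b (0.21), Ndufa8 (0.20), Atp5j2 (0.17) and Ndufb6 (0.15). Between 30 and 12 weeks there were 5, where 3.12% of all genes did so (1.37% above and 1.74% below), namely Cox8b (1.19), Cox6a2 (0.78), Ndufb10 (0.41), Uqcr (0.31) and Ndufs5 (0.29), with adjusted p of 0.0721 to 0.165 from limma.

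Between 30 and 4 weeks the difference itself was not tested. There 25 members were above 0 at 30 weeks and 3 below, where 19.7% of all genes lay on opposite sides (9.1% above and 10.6% below). In complex IV these were Cox8b (1.55), Cox7c (1.14), Cox7a2 (1.13), Cox6c (0.60), Cox6a1 (0.53), Cox6a2 (0.49), Cox5a (0.46), Ndufa4 (0.45), Cox6b1 (0.44) and Cox5b (0.38). In complex I they were Ndufc1 (0.95), Ndufab1 (0.61), Ndufs5 (0.53), Ndufb2 (0.48), Ndufa8 (0.44), Ndufb10 (0.42), Ndufb4 (0.41), Ndufa12 (0.31), Ndufb6 (0.27), Ndufs3 (0.27), Ndufs6 (0.24) and Ndufc2 (0.15), and elsewhere Uqcr (0.54), Atp5k (0.53) and Atp5j2 (0.15). The difference was negative for Atp5f1 (−0.83), Ndufs1 (−0.62) and Ndufv2 (−0.18). All these sides are those of the brightest probes, and other probes of a gene did not always share them. At 4 weeks a second Ndufb2 probe gave 0.31 and 0.04, and another Ndufab1 probe 0.20 and 0.31. With median centring alone 0 of the 11, 0 of the 5 and 1 of the 28 (Cox8b) kept this pattern in the same direction. Ages also differ in wild-type pool, and the 4-week arrays in slide, scanner and version of the scanner file software.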

How the results depend on the processing

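Of the members named at 30 weeks, Sdha, Sdhc, Uqcrfs1, Cox7c, Ndufc1, Cox7a2, Cox5a, Cox6a1 and Ndufa4 kept direction and call in 21 of 21 alternatives. In the replicate blocks among these, the value tested was the fitted value of replicate 1 and not the mean of the age. Median centring without loess moved most. It called 75 members higher and 0 lower at 4 weeks, 75 and 0 at 12 weeks, 48 and 3 at 30 weeks, and 0 higher for 12 minus 4 weeks. Under it the median of all members was 0.78, 0.76 and 0.49 at 4, 12 and 30 weeks and −0.25 for 30 minus 12 weeks (0.04 in the reported fit), that of complex I 0.81, 0.76 and 0.47, of complex II 0.65, 0.36 and −0.35, of complex III 0.65, 0.86 and 0.62, of complex IV 0.67, 0.76 and 0.69, and of complex V 0.92, 0.88 and 0.49. It reversed, at 4 weeks, Atp5g2 (0.22), Cox4nb (0.40), Uqcr (0.53), Cox8a (0.53), Ndufv1 (0.73), Sdha (0.70), Sdhb (0.75), Uqcrc1 (0.58), Cox4i1 (0.82), Cox5a (0.87), Atp5b (0.92), Cox6a1 (0.72), Cox7a2 (0.58), Cox7a2l (0.75) and Ndufa4 (0.89). At 12 weeks it reversed Ndufs1 (0.68), Ndufv1 (0.61), Sdhb (0.49), Uqcrc1 (0.55), Cox4i1 (0.77), Cox7a2l (0.57), Cox8a (0.63) and Ndufa4 (0.75), and at 30 weeks Cox4i1 (0.46). The cause was not tested.

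The mean of probes reversed Atp5a1 (−0.12) and Atp5b (−0.49) at 30 weeks, gave medians of 0.00 for complex III at 4 weeks and −0.51 for complex II at 30 weeks, and called 0 lower at 12 weeks. The scanner log ratio and the series matrix called 0 lower at 12 weeks and 1 lower for 12 minus 4 weeks. At 4 weeks they gave medians of −0.16 and −0.17 for all members, −0.13 and −0.12 for complex III and −0.24 and −0.25 for complex IV. Probe composition correction called 7 lower at 4 weeks, 0 at 12 weeks and 1 for 12 minus 4 weeks. It gave medians of −0.09 for all members and −0.14 for complex IV at 4 weeks, and −0.55, 0.17 and 0.06 for complexes II, III and V at 30 weeks. Scaling between arrays called 5 higher and 2 lower at 12 weeks and gave complex II −0.60 at 30 weeks, the strict filter called 2 higher at 12 weeks and 2 lower for 12 minus 4 weeks, and the intensity trend 0 lower at 12 weeks and 1 lower for 12 minus 4 weeks. Slide as a random block, with an estimated correlation of −0.259, called 9 higher and 23 lower at 4 weeks, 26 and 23 at 12 weeks, 16 and 3 for 12 minus 4 weeks, and 18 and 5 for 30 minus 12 weeks. For most settings in this section the share of all genes called is not given, so their counts are no result about the members.

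Arrays with the same replicate number shared only a number: their deviations had r of −0.08 to 0.24 over 7 pairs, against −0.24 to 0.17 over 14 other pairs. In both settings with a replicate block, the fitted value of an age is that of its replicate 1 and not a mean over its replicates. Values and calls at an age under them are therefore not alternative estimates of the age mean. The replicate block called 0 lower at 12 weeks and 0 higher for 12 minus 4 weeks. It gave medians of −0.13 for all members, −0.18 for complex I and −0.12 for complex IV at 4 weeks, and −0.78 for complex II and −0.04 for complex V at 30 weeks. The replicate block with composition correction called 2 higher and 5 lower at 4 weeks, 0 lower at 12 weeks and 0 higher for 12 minus 4 weeks. It gave medians of −0.12 (all members), −0.02 (complex III) and −0.06 (complex IV) at 4 weeks, 0.17 (complex IV) at 12 weeks, and 0.11 (all members), 0.17 (complex III) and 0.05 (complex V) at 30 weeks.

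With each array left out in turn, a lone array of an age being assumed to vary like the others, members called higher and lower ranged over 0 to 5 and 0 to 16 at 4 weeks, 0 to 5 and 0 to 3 at 12 weeks, 21 to 29 and 9 to 18 at 30 weeks, 0 to 3 and 0 to 2 for 12 minus 4 weeks, and 0 to 15 and 0 to 10 for 30 minus 12 weeks. Leaving out a 30-week array kept 31 to 34 of the 46 calls of that age, and 9 were lower without replicate 3. At 4 weeks, 7, 6 and 7 were lower without replicate 3 of 12 weeks and replicates 1 and 3 of 30 weeks. The median of all members at 4 weeks ranged from −0.12 to −0.11, those of complexes III and IV then from −0.06 to −0.04 and from −0.16 to −0.12, and that of complex V at 30 weeks from −0.02 to 0.03. Signal over background limits Cox4i2 and Cox8b.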
